A study of Mus musculus with 9 samples.

Results

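The genes described here are 40 genes of DNA replication and S phase, taken by name from a list of replication licensing, DNA polymerase, nucleotide supply and chromatin assembly genes. All 40 had a row among the 14209 genes of the count table, and all 40 passed the filter on low counts. Expression was measured by bulk RNA sequencing in type 2 conventional dendritic cells (cDC2s) from the spleens of C57BL/6 mice. The CD97-deficient group (labelled CD97 KO) lacked CD97, an adhesion G protein-coupled receptor that is encoded by Adgre5. The Gα13-deficient group carried a floxed Gna13 gene and CD11c-cre, a Cre recombinase under the promoter of the dendritic cell gene Itgax, and its genotype label also names Adgre5-/-. Gα13 is the alpha subunit of a G protein that signals to RhoA. Both groups were set against WT cells. Each genotype had 3 libraries. Whether WT or CD97-deficient mice carried the Cre, the age of the mice and the sorting of the cells are not stated in the labels. The labels also do not say whether each library is from another mouse, so the p-values reflect only library-to-library spread, which can be technical in part.

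Replication is prepared before S phase, when the origin recognition complex, Cdc6 and Cdt1 load the ring of Mcm2 to Mcm7 proteins onto DNA. Cdc45 and the GINS complex then turn the ring into a working helicase, DNA polymerases copy both strands with the sliding clamp Pcna, and histones are put back behind the fork. Most of these genes are transcribed at the start of S phase by E2F transcription factors, which the retinoblastoma family of pocket proteins holds back in resting cells. Conventional dendritic cells arise from dividing bone marrow precursors, and some of them still divide in the spleen. In bulk RNA, fewer cells of a type and less RNA per cell cannot be told apart.

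The promoter stretches that carry matches to the E2F motif are shown because their letters are the part of these genes outside the counts. Whether the matches have a part in the levels was not tested. RefSeq promoter windows of GRCm38.p6, from 250 bases before to 50 bases after a transcript start, were available for 33 of the 40 genes, in 38 windows. Each window was searched on both strands for the 4 E2F words TTTCCCGC, TTTCGCGC, TTTGCCGC and TTTGGCGC. The stretches are written 5′ to 3′ on the strand of the gene, with the matched bases in capitals, so a match on the other strand appears as its reverse complement. Mcm6 (chr1:128359725-128359835, minus strand) held 3 E2F words, of which the first pair overlap. Mcm5 (chr8:75109336-75109387, plus strand) held 2 overlapping words. Cdc6 (chr11:98907993-98908040, plus strand), Uhrf1 (chr17:56304108-56304155, plus strand) and Pola1 (chrX:93632266-93632313, minus strand) held 1 word each. Only matches before the transcript start were printed, and only where the stretch overlaps no annotated exon of GENCODE M21. Other genes of the list that hold E2F words, such as Mcm3, Mcm7 and Rfc3, are therefore not shown. The stretches of Cdc6 and Uhrf1 lie in an intron, before a later start of the gene, and the other printed ones lie upstream of the gene.
Mcm6: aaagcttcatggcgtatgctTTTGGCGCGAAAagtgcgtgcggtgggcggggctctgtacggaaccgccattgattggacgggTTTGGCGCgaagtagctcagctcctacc
Mcm5: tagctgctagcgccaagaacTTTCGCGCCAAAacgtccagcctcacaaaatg
Cdc6: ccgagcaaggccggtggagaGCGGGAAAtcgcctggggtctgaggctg
Uhrf1: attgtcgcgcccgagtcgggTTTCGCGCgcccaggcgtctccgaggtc
Pola1: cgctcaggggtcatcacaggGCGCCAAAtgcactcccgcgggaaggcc

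The promoters of the ribonucleotide reductase subunits are shown beside them as members that were called in both knockouts and have no E2F word in the window. Only exact words were counted, and the Rrm1 stretch holds GTTCCCGC, which differs from the searched word TTTCCCGC in its first base. Their capitals mark the word CCAAT, which is bound by NF-Y, a factor of many cell cycle promoters. Rrm1 (chr7:102441584-102441674, plus strand) held 2 such words and Rrm2 (chr12:24708184-24708228, plus strand) held 1.
Rrm1: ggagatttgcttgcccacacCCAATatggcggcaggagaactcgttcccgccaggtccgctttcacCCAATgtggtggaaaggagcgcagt
Rrm2: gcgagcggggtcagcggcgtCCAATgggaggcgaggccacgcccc

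Library totals ran from 5679946 to 13904646 counts, at which 3 counts in 1 library equal 0.216 to 0.528 CPM (counts scaled to a common library size). The targeted genes were read first. Gna13 had 114, 96.8 and 91.7 CPM in Gα13-deficient libraries, against 227, 228 and 186 CPM in WT libraries, and fell by 1.09 ± 0.11 on the log2 scale (SE, adjusted p = 6.84e-05). Cd97, the older symbol of Adgre5, had 726, 840 and 438 CPM in CD97-deficient libraries, against 1506, 899 and 1299 CPM in WT libraries, and its log2 fold change of -0.89 ± 0.28 (SE) did not pass edgeR's test (adjusted p = 0.105) and passed DESeq2's (0.0172). In Gα13-deficient libraries Cd97 had 1145, 1224 and 1016 CPM and was not called against WT (-0.13, adjusted p = 0.816), although that group's label also names Adgre5 deficiency. RNA over the whole gene does not settle which label text holds. All 3 CD97-deficient libraries, Gα13-deficient replicate 2 and WT replicate 2 had a female pattern of Xist and Y-linked genes, and the other libraries had a male one. All 12 cDC2 markers of a fixed list, such as Itgax, Sirpa and H2-Ab1, were detected, and their summed level was 9080 to 9536 CPM in CD97-deficient, 9581 to 10787 CPM in Gα13-deficient and 9929 to 11470 CPM in WT libraries. The summed level of 14 macrophage markers varied within groups, at 1869, 483 and 1140 CPM in CD97-deficient, 770, 983 and 603 CPM in Gα13-deficient and 686, 1463 and 429 CPM in WT replicates 1 to 3. The B cell list summed to 66.6 to 112 CPM in CD97-deficient, 52.1 to 71.1 CPM in Gα13-deficient and 69.8 to 79.5 CPM in WT libraries, and each marker gene in the table had counts in every group. The plasma cell list summed to 123 to 138 CPM in CD97-deficient and 119 to 137 CPM in Gα13-deficient libraries. In WT libraries it summed to 133 to 144 CPM. Of its 4 markers 1 was called higher in CD97-deficient cells (median log2 fold change of the list 0.26, highest 3.31). In Gα13-deficient cells 0 were called (median 0.10), and 1 had an unadjusted p under 0.05. Of the T cell and erythroid lists 0 markers were called in either comparison with WT. Some lists moved with the Gα13 comparison. The NK cell list summed to 25.9 to 33.3 CPM in Gα13-deficient, 15.5 to 30.6 CPM in CD97-deficient and 12.8 to 18.9 CPM in WT libraries, and Klrk1 was called higher in Gα13-deficient cells. The neutrophil and monocyte list summed to 33.8 to 47.4 CPM in Gα13-deficient, 13.2 to 21.3 CPM in CD97-deficient and 14.8 to 30.2 CPM in WT libraries. All 8 plasmacytoid dendritic cell markers had a log2 fold change above 0 in Gα13-deficient cells (median 0.65, Tcf4 called) and 3 of 8 in CD97-deficient cells. Of the cDC2 markers 2 were called higher (Itgax and Itgam) and 3 lower (Irf4, Esam and Cd4) in Gα13-deficient cells, and 0 in CD97-deficient cells. Of these 12 markers 11 had a log2 fold change below 0 in CD97-deficient cells (median of the list -0.21, lowest -1.67). In Gα13-deficient cells 9 did (median -0.21, lowest -0.97). The macrophage markers Emr1 and Cd209b were called lower in both knockouts, and 0 macrophage markers were called higher. In CD97-deficient cells 12 of the 14 had a log2 fold change above 0 (median of the list 0.84), and in Gα13-deficient cells 7 did (median -0.02). The part of other cell types in the results was not tested.

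Loss of CD97 and loss of Gα13 both came with more RNA of most replication genes. Summed over the 40 genes, the level was 2219, 2152 and 2460 CPM in CD97-deficient libraries and 2087, 2406 and 2557 CPM in Gα13-deficient libraries, against 1255, 1550 and 1321 CPM in WT libraries. Every knockout library lay above every WT library. In CD97-deficient cells 27 of the 40 genes were higher and 0 were lower by edgeR's quasi-likelihood test (adjusted p under 0.05 over all 12043 genes tested), where 4.84% of all genes tested were called higher and 3.69% lower. In Gα13-deficient cells 27 of the 40 were also higher and 0 lower, where 5.74% of all genes tested were called higher and 5.24% lower. The 40 genes were chosen with earlier results of these data known, so the contrast with all genes is not that of a list chosen blind. The log2 fold changes of all 40 genes were above 0 in both comparisons. Their median was 0.78 in CD97-deficient cells (range 0.20 to 1.16), against a median of -0.00 over all genes tested. In Gα13-deficient cells it was 0.82 (range 0.10 to 1.28), against -0.01 over all genes tested. Scaling by library totals instead of TMM factors put the median log2 fold change of all genes at 0.05 in CD97-deficient and 0.03 in Gα13-deficient cells, and 774 genes were called higher and 331 lower in CD97-deficient cells, where TMM gave 583 and 444. In Gα13-deficient cells 861 were called higher and 523 lower, where TMM gave 691 and 631, and 29 of the 40 replication genes were called higher in each comparison.

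**Figure D1:**
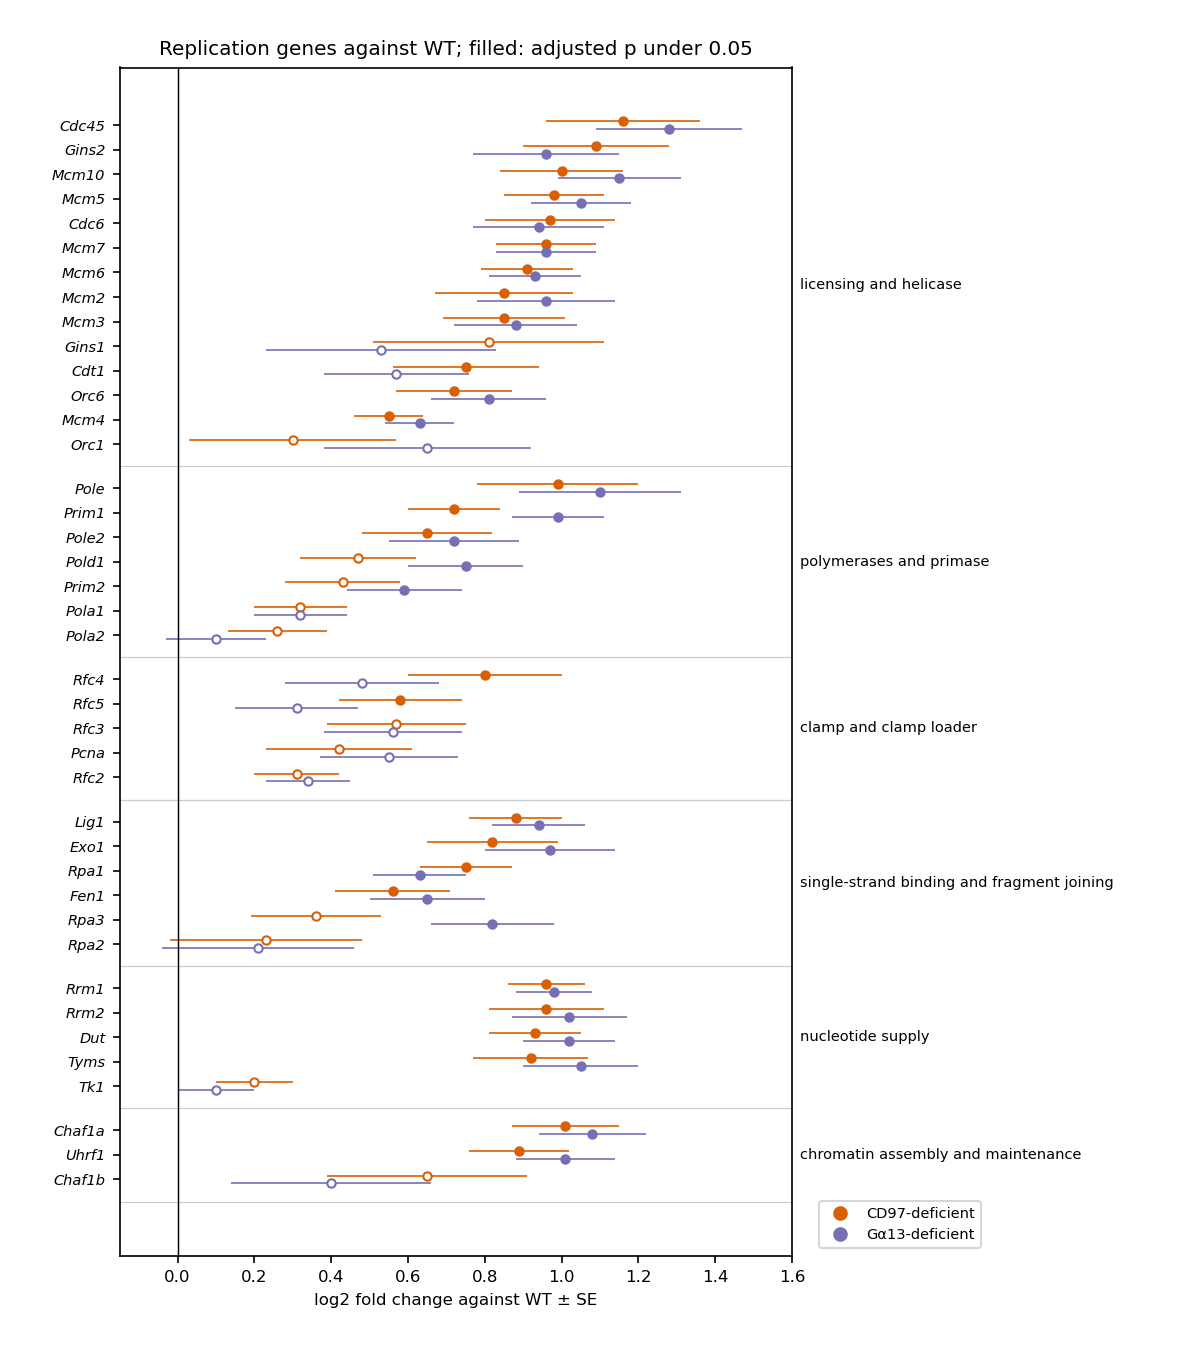
Log2 fold change against WT (x axis, ± SE) of the 40 replication genes (y axis, grouped by role), with CD97-deficient cells in orange and Gα13-deficient cells in purple, n = 3 libraries per group; filled points have an adjusted p under 0.05. All points lie above 0, from 0.10 (Tk1 and Pola2 in Gα13-deficient cells) to 1.28 (Cdc45 in Gα13-deficient cells), and 27 points are filled in each comparison.

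The comparisons share the WT libraries, so their values are given side by side and not as independent evidence. Of the 40 genes, 24 were called in both, 3 in CD97-deficient cells alone (Cdt1, Rfc4 and Rfc5), 3 in Gα13-deficient cells alone (Prim2, Pold1 and Rpa3) and 10 in neither by edgeR (Orc1, Gins1, Pola1, Pola2, Pcna, Rfc2, Rfc3, Rpa2, Tk1 and Chaf1b). The 3 CD97-deficient libraries all lay above the 3 WT libraries for 35 genes, where 14.7% of all genes tested did so. The 3 Gα13-deficient libraries did so for 34 genes, where 15.5% of all genes tested did so.

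The sex pattern moved with the CD97 comparison, since all 3 CD97-deficient libraries and 1 of 3 WT libraries were female in pattern. With that pattern in the model 16 of the 27 genes kept their call in CD97-deficient cells, namely Cdc6, Mcm4, Mcm5, Mcm6, Mcm7, Mcm10, Cdc45, Prim1, Rpa1, Lig1, Rrm1, Rrm2, Tyms, Dut, Chaf1a and Uhrf1, and the median log2 fold change was 0.67. In Gα13-deficient cells, with 1 female library in each group, all 27 kept their call and the median was 0.82. Only 1 member, Pola1, is on the X chromosome, and the part of sex in the result was not tested. Within groups, WT replicate 2 was the highest WT library and CD97-deficient replicate 2 the lowest CD97-deficient library in both the macrophage and the replication sum. The highest CD97-deficient library was replicate 1 in the macrophage sum (1869 CPM) and replicate 3 in the replication sum (2460 CPM). Gα13-deficient replicate 3 was the lowest of its group in the macrophage sum (603 CPM) and the highest in the replication sum (2557 CPM). Across groups, CD97-deficient replicate 2 had a macrophage sum of 483 CPM, below WT replicates 1 and 2, and a replication sum of 2152 CPM, above every WT library. The part of macrophage RNA in the result was not tested.

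Licensing and helicase genes made up 14 of the 40, of which 12 were higher in CD97-deficient cells (median log2 fold change 0.88) and 11 in Gα13-deficient cells (0.93). Mcm6, a subunit of the helicase ring whose promoter is printed above, had 156, 158 and 173 CPM in CD97-deficient libraries, 137, 173 and 184 CPM in Gα13-deficient libraries and 78.1, 98.5 and 83.2 CPM in WT libraries. The knockout libraries all lay above the WT libraries. Its log2 fold change was 0.91 ± 0.12 in CD97-deficient cells (SE, adjusted p = 0.000595) and 0.93 ± 0.12 in Gα13-deficient cells (adjusted p = 0.000223), the smallest p of this role in both comparisons. Mcm4, the ring subunit with the highest level per length, had 141, 140 and 162 CPM in CD97-deficient libraries, 144, 157 and 166 CPM in Gα13-deficient libraries and 97.2, 106 and 99 CPM in WT libraries. It again separated every knockout library from every WT library, with the smallest fold changes of the ring, 0.55 ± 0.09 in CD97-deficient cells (SE, adjusted p = 0.00234) and 0.63 ± 0.09 in Gα13-deficient cells (adjusted p = 0.000625). Mcm2, a ring subunit used as a marker of cycling cells, had 64.7, 63.7 and 83.1 CPM in CD97-deficient libraries, 62.8, 78.6 and 86.5 CPM in Gα13-deficient libraries and 30.7, 49.1 and 38 CPM in WT libraries. Neither knockout group overlapped WT, and the log2 fold change of Mcm2 was 0.85 ± 0.18 in CD97-deficient cells (adjusted p = 0.0128) and 0.96 ± 0.18 in Gα13-deficient cells (adjusted p = 0.00496).

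The other ring subunits moved in the same range. The log2 fold changes in CD97-deficient cells were 0.85 for Mcm3, 0.98 for Mcm5 and 0.96 for Mcm7, and in Gα13-deficient cells they were 0.88 for Mcm3, 1.05 for Mcm5 and 0.96 for Mcm7. In RPKM, which is CPM per kilobase of exon, Mcm4 had the highest and Mcm2 the lowest value of the ring in all 9 libraries. The length counts every annotated exon of a gene, 3589 bases for Mcm4 and 6956 bases for Mcm2. Rankings between genes therefore depend on the annotation as well as on the RNA. The 6 subunits together summed to 157, 151 and 179 RPKM in CD97-deficient libraries and 145, 176 and 183 RPKM in Gα13-deficient libraries, against 82.7, 106 and 90 RPKM in WT libraries. The RPKM of Mcm4 was 3.77 to 4.25 times that of Mcm2 in CD97-deficient libraries and 3.71 to 4.45 times in Gα13-deficient libraries. In WT libraries it was 4.18 to 6.15 times, and the ranges of the groups overlap.

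Among the genes that act on the ring, Cdc45 had the largest fold change of the whole list in both comparisons. Cdc45, which joins the ring to form the active helicase, had 29.8, 28.7 and 36.5 CPM in CD97-deficient libraries, 30.9, 35.5 and 36.9 CPM in Gα13-deficient libraries and 15.6, 17.4 and 9.17 CPM in WT libraries. No knockout library reached down to a WT library. Its log2 fold change was 1.16 ± 0.20 in CD97-deficient cells (SE, adjusted p = 0.00252) and 1.28 ± 0.19 in Gα13-deficient cells (adjusted p = 0.000871), which is 2.23-fold in CD97-deficient and 2.42-fold in Gα13-deficient cells. Mcm10, which helps to start the helicase, changed by 1.0 ± 0.16 in CD97-deficient cells and 1.15 ± 0.16 in Gα13-deficient cells on the log2 scale, and both passed. Gins2, a GINS subunit, changed by 1.09 ± 0.19 in CD97-deficient cells and 0.96 ± 0.19 in Gα13-deficient cells, and both passed. Gins1, another GINS subunit, did not pass edgeR's test in either comparison: it had 18.3, 23.7 and 22.6 CPM in CD97-deficient libraries, 14.4, 17 and 21.3 CPM in Gα13-deficient libraries and 6.33, 17.7 and 13.2 CPM in WT libraries, a wide spread in WT. In CD97-deficient cells it passed by DESeq2 (adjusted p = 0.0485), with the replicate block (0.0471) and without WT replicate 2 (0.0192).

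Among the origin and loading factors, Cdc6 and Orc6 passed in both comparisons. Cdc6, the loading ATPase, changed by 0.97 ± 0.17 in CD97-deficient cells and 0.94 ± 0.17 in Gα13-deficient cells on the log2 scale, and both passed. Orc6, the smallest subunit of the origin recognition complex, changed by 0.72 ± 0.15 in CD97-deficient cells and 0.81 ± 0.15 in Gα13-deficient cells, and both passed. Cdt1, which brings the ring to Cdc6, changed by 0.75 ± 0.19 in CD97-deficient cells (adjusted p = 0.0256) and by 0.57 ± 0.19 in Gα13-deficient cells, which did not pass (adjusted p = 0.0706). Orc1, the origin recognition ATPase, had 11.8, 9.52 and 10.1 CPM in CD97-deficient libraries, 12.7, 7.65 and 18.9 CPM in Gα13-deficient libraries and 7.53, 9.79 and 8.32 CPM in WT libraries. The groups overlap in both comparisons and neither passed (adjusted p = 0.542 in CD97-deficient cells and 0.139 in Gα13-deficient cells). The calls of Orc6 (adjusted p = 0.0511) and Mcm2 (0.0596) in CD97-deficient cells were lost without CD97-deficient replicate 3. That of Cdt1 was lost without CD97-deficient replicate 2 (0.0763), CD97-deficient replicate 3 (0.112) or WT replicate 1 (0.118).

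**Figure D2:**
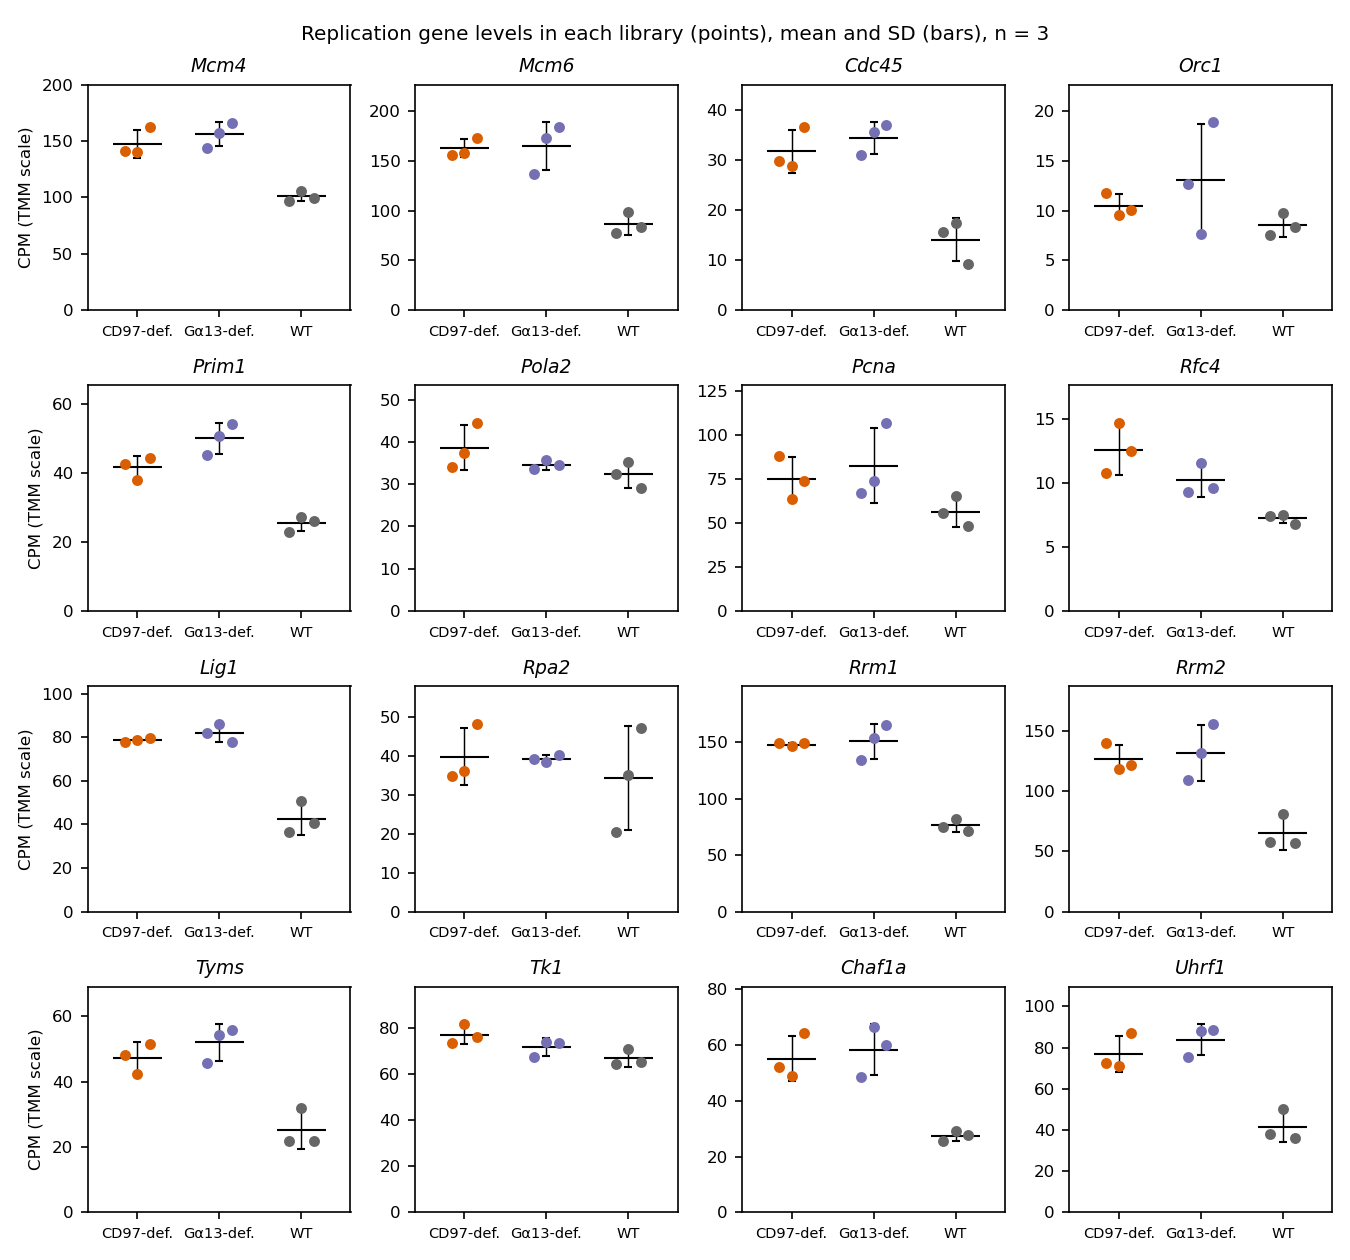
Levels in CPM on the TMM scale (y axis, from 0) of 16 replication genes in each library (points), with the group mean and SD (bars, n = 3), for CD97-deficient, Gα13-deficient and WT cells from left to right. Mcm6, Cdc45, Prim1, Lig1, Rrm1, Rrm2 and Uhrf1 lie higher in all 6 knockout libraries than in any WT library, whereas Orc1, Pola2 and Rpa2 overlap.

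Polymerase and primase genes numbered 7, of which 3 were higher in CD97-deficient cells (median log2 fold change 0.47) and 5 in Gα13-deficient cells (0.72). Prim1, the catalytic primase subunit that lays the RNA primer, had 42.6, 37.9 and 44.5 CPM in CD97-deficient libraries, 45.3, 50.8 and 54.3 CPM in Gα13-deficient libraries and 22.8, 27.2 and 26.2 CPM in WT libraries. The 3 groups did not overlap at all, with Gα13-deficient libraries on top. Its log2 fold change was 0.72 ± 0.12 in CD97-deficient cells (SE, adjusted p = 0.00274) and 0.99 ± 0.12 in Gα13-deficient cells (adjusted p = 0.000201). Pole, the catalytic subunit of the leading-strand polymerase, had 75, 74.9 and 109 CPM in CD97-deficient libraries, 76.2, 100 and 101 CPM in Gα13-deficient libraries and 32, 51.8 and 46.7 CPM in WT libraries. The knockout libraries lay above all WT libraries, and the log2 fold changes of 0.99 ± 0.21 in CD97-deficient cells (adjusted p = 0.0178) and 1.10 ± 0.21 in Gα13-deficient cells (adjusted p = 0.00873) both passed. Pole2, the second subunit of that polymerase, changed by 0.65 ± 0.17 in CD97-deficient cells and 0.72 ± 0.17 in Gα13-deficient cells, and both passed.

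The polymerase α subunits, which extend the primer, had small fold changes. Pola1, the catalytic subunit, had 96.2, 89.5 and 91.3 CPM in CD97-deficient libraries, 80, 85.9 and 111 CPM in Gα13-deficient libraries and 76.3, 78.1 and 67.8 CPM in WT libraries. Both knockout groups lay above WT, but the log2 fold change of 0.32 ± 0.12 in both comparisons did not pass (adjusted p = 0.112 in CD97-deficient cells and 0.0977 in Gα13-deficient cells). Pola2, the regulatory subunit, had 34, 37.4 and 44.5 CPM in CD97-deficient libraries, 33.5, 35.8 and 34.6 CPM in Gα13-deficient libraries and 32.5, 35.3 and 29 CPM in WT libraries, with overlapping groups. Pold1, the catalytic subunit of the lagging-strand polymerase, changed by 0.47 ± 0.15 in CD97-deficient cells (adjusted p = 0.0627 by edgeR and 0.0486 by DESeq2) and by 0.75 ± 0.15 in Gα13-deficient cells (adjusted p = 0.00482). Prim2, the large primase subunit, changed by 0.43 ± 0.15 in CD97-deficient cells (adjusted p = 0.0956, not passing) and by 0.59 ± 0.15 in Gα13-deficient cells (adjusted p = 0.0204). The call of Pole2 in CD97-deficient cells was lost without any 1 of CD97-deficient replicates 1 (0.0971), 2 (0.0723) and 3 (0.102) and WT replicates 1 (0.121) and 3 (0.0923), and in Gα13-deficient cells without Gα13-deficient replicates 2 (0.0728) or 3 (0.0504) or WT replicates 1 (0.055) or 3 (0.0555). The call of Prim2 in Gα13-deficient cells was lost without Gα13-deficient replicates 1 (0.0522), 2 (0.0518) or 3 (0.0647) or WT replicate 3 (0.0618).

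The sliding clamp and its loader had few calls, 2 of 5 genes in CD97-deficient cells (median log2 fold change 0.57) and 0 of 5 in Gα13-deficient cells (0.48). In Gα13-deficient cells 4 of the 5 had an unadjusted p under 0.05, and DESeq2 called Pcna (adjusted p = 0.027) and Rfc3 (0.0496). Pcna, the clamp itself and a common marker of S phase, had 88.4, 63.9 and 73.7 CPM in CD97-deficient libraries, 67.2, 73.7 and 107 CPM in Gα13-deficient libraries and 55.5, 65.4 and 48.4 CPM in WT libraries. The CD97-deficient group overlaps WT through WT replicate 2, and the Gα13-deficient group lies just above it. Its log2 fold change was 0.42 ± 0.19 in CD97-deficient cells (SE, adjusted p = 0.195) and 0.55 ± 0.18 in Gα13-deficient cells (adjusted p = 0.0807). The RFC proteins load the clamp onto DNA. Rfc4 had 10.8, 14.7 and 12.5 CPM in CD97-deficient libraries, 9.31, 11.6 and 9.64 CPM in Gα13-deficient libraries and 7.42, 7.47 and 6.79 CPM in WT libraries. All knockout libraries were above WT, and the log2 fold change was 0.80 ± 0.20 in CD97-deficient cells (adjusted p = 0.0233) and 0.48 ± 0.20 in Gα13-deficient cells (adjusted p = 0.143).

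Rfc5 changed by 0.58 ± 0.16 on the log2 scale in CD97-deficient cells (adjusted p = 0.0356) and by 0.31 ± 0.16 in Gα13-deficient cells (adjusted p = 0.232). Rfc3, with the smallest p of this role in Gα13-deficient cells, had 16.3, 16.4 and 20.3 CPM in CD97-deficient libraries, 16.9, 17.7 and 18.1 CPM in Gα13-deficient libraries and 11, 14.5 and 10.2 CPM in WT libraries. Both knockout groups lay above WT, but the adjusted p by edgeR was 0.0619 in CD97-deficient cells and 0.0573 in Gα13-deficient cells, and by DESeq2 it was 0.049 in CD97-deficient cells. Rfc2, another loader subunit, changed by 0.31 ± 0.11 in CD97-deficient cells and 0.34 ± 0.11 in Gα13-deficient cells, and neither passed by edgeR. With library totals as scaling, Rfc3 passed in both comparisons (adjusted p = 0.0455 in CD97-deficient and 0.0469 in Gα13-deficient cells) and Rfc2 in Gα13-deficient cells (0.0471). Without WT replicate 2, Rfc3 also passed in both (0.0252 in CD97-deficient and 0.0231 in Gα13-deficient cells). Rfc4 overlaps Eif4a2, an abundant translation factor gene, on the opposite strand, and Rfc5 overlaps Wsb2 and Rfc2 overlaps Lat2 in the same way. The labels do not say if counting was strand-specific, so reads of such pairs may be mixed. The call of Rfc4 in CD97-deficient cells was lost without CD97-deficient replicates 2 (0.0902) or 3 (0.0805) or WT replicates 1 (0.0716) or 3 (0.0529), and that of Rfc5 without Gα13-deficient replicate 2 (0.0534), CD97-deficient replicates 2 (0.109) or 3 (0.168) or WT replicates 1 (0.104), 2 (0.0653) or 3 (0.0534).

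Genes that bind single-stranded DNA or join the lagging-strand fragments numbered 6, of which 4 were higher in CD97-deficient cells (median log2 fold change 0.66) and 5 in Gα13-deficient cells (0.74). Lig1, the ligase that seals the fragments, had 77.6, 78.7 and 79.6 CPM in CD97-deficient libraries, 81.7, 86.2 and 78 CPM in Gα13-deficient libraries and 36.5, 50.7 and 40.6 CPM in WT libraries. The knockout libraries are tight and far above WT, with a log2 fold change of 0.88 ± 0.12 in CD97-deficient cells (SE, adjusted p = 0.000687) and 0.94 ± 0.12 in Gα13-deficient cells (adjusted p = 0.000191). Fen1, which trims the flap of each fragment, changed by 0.56 ± 0.15 in CD97-deficient cells and 0.65 ± 0.15 in Gα13-deficient cells, and both passed. Exo1, an exonuclease of replication and mismatch repair, changed by 0.82 ± 0.17 in CD97-deficient cells and 0.97 ± 0.17 in Gα13-deficient cells, and both passed. The call of Exo1 in CD97-deficient cells was lost without CD97-deficient replicate 3 (adjusted p = 0.0521). That of Fen1 in CD97-deficient cells was lost without Gα13-deficient replicate 2 (0.0511), CD97-deficient replicates 1 (0.0873), 2 (0.0559) or 3 (0.146) or WT replicates 1 (0.135) or 2 (0.0635), and in Gα13-deficient cells without Gα13-deficient replicate 2 (0.0516) or WT replicate 1 (0.05, just over the threshold).

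The 3 subunits of replication protein A, which coats single-stranded DNA as 1 complex, are given in order of size, and differences between them were not tested. Rpa1, the large subunit, changed by 0.75 ± 0.12 in CD97-deficient cells (adjusted p = 0.00161) and 0.63 ± 0.12 in Gα13-deficient cells (adjusted p = 0.00325) on the log2 scale, and both passed. Rpa2, the middle subunit, had 35, 36.2 and 48.4 CPM in CD97-deficient libraries, 39.3, 38.4 and 40.3 CPM in Gα13-deficient libraries and 20.5, 35.2 and 47.2 CPM in WT libraries. The WT libraries span the Gα13-deficient ones whole and the CD97-deficient ones but for replicate 3, and neither comparison passed (adjusted p = 0.614 in CD97-deficient cells and 0.649 in Gα13-deficient cells). Rpa3, the small subunit, had 17.4, 21 and 16.5 CPM in CD97-deficient libraries, 21.5, 28.5 and 25.8 CPM in Gα13-deficient libraries and 14, 13.6 and 15.3 CPM in WT libraries. The groups are stacked without overlap, and the change passed in Gα13-deficient cells (0.82 ± 0.16, adjusted p = 0.00518) and not in CD97-deficient cells (0.36 ± 0.17, adjusted p = 0.203).

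Nucleotide supply had 5 genes, of which 4 were higher in each knockout, with median log2 fold changes of 0.93 in CD97-deficient cells and 1.02 in Gα13-deficient cells. Rrm1, the large subunit of ribonucleotide reductase, which makes deoxyribonucleotides, had 149, 147 and 149 CPM in CD97-deficient libraries, 134, 154 and 165 CPM in Gα13-deficient libraries and 75.2, 82.4 and 71.7 CPM in WT libraries. Both knockout groups are far above WT. The log2 fold change of 0.96 ± 0.10 in CD97-deficient cells (SE, adjusted p = 0.000456) and 0.98 ± 0.10 in Gα13-deficient cells (adjusted p = 6.84e-05) is 1.94-fold in CD97-deficient and 1.98-fold in Gα13-deficient cells. Rrm2, the small subunit, with the highest level per length of the list in both knockouts (45.8 RPKM in CD97-deficient and 47.7 RPKM in Gα13-deficient cells) but below Mcm4 in WT (23.5 against 28.1 RPKM), had 140, 118 and 122 CPM in CD97-deficient libraries, 109, 132 and 156 CPM in Gα13-deficient libraries and 57.4, 80.9 and 57.1 CPM in WT libraries. Again no knockout library overlapped WT, with log2 fold changes of 0.96 ± 0.15 in CD97-deficient cells (adjusted p = 0.003) and 1.02 ± 0.15 in Gα13-deficient cells (adjusted p = 0.00146). Tyms, thymidylate synthase, had 48.1, 42.3 and 51.6 CPM in CD97-deficient libraries, 45.7, 54.4 and 55.9 CPM in Gα13-deficient libraries and 21.7, 31.8 and 21.7 CPM in WT libraries. Neither knockout group overlapped WT, and Tyms changed by 0.92 ± 0.15 in CD97-deficient cells (adjusted p = 0.00236) and 1.05 ± 0.15 in Gα13-deficient cells (adjusted p = 0.000625). Dut, which keeps uracil out of DNA, changed by 0.93 ± 0.12 in CD97-deficient cells and 1.02 ± 0.12 in Gα13-deficient cells, and both passed.

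Tk1, the S phase thymidine kinase, was the exception of this role. It had 73.7, 81.8 and 76.3 CPM in CD97-deficient libraries, 67.4, 74.2 and 73.9 CPM in Gα13-deficient libraries and 64.5, 71.1 and 65.6 CPM in WT libraries. The CD97-deficient libraries lay just above WT and the Gα13-deficient libraries overlapped it, with log2 fold changes of 0.20 ± 0.10 in CD97-deficient cells (SE, adjusted p = 0.201) and 0.10 ± 0.10 in Gα13-deficient cells (adjusted p = 0.555). Tk1 overlaps Afmid on the opposite strand, and the part of that overlap in its counts was not tested. In all, 17 of the 40 genes overlap a gene on the other strand, among them Fen1, Cdc45, Mcm7, Lig1, Orc6 and Chaf1a.

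Chromatin assembly and maintenance had 3 genes, of which 2 were higher in each knockout. Chaf1a, the large subunit of the factor that deposits histones behind the fork, had 52.3, 48.8 and 64.3 CPM in CD97-deficient libraries, 48.6, 66.4 and 60.2 CPM in Gα13-deficient libraries and 25.6, 29.1 and 27.9 CPM in WT libraries. All knockout libraries lay above WT, with log2 fold changes of 1.01 ± 0.14 in CD97-deficient cells (SE, adjusted p = 0.000832) and 1.08 ± 0.14 in Gα13-deficient cells (adjusted p = 0.000268). Uhrf1, which brings the maintenance DNA methyltransferase to newly copied DNA, had 72.6, 71.2 and 87 CPM in CD97-deficient libraries, 75.4, 88 and 88.3 CPM in Gα13-deficient libraries and 38.2, 50.1 and 36.2 CPM in WT libraries. It too separated both knockouts from WT, at 0.89 ± 0.13 in CD97-deficient cells (adjusted p = 0.00119) and 1.01 ± 0.13 in Gα13-deficient cells (adjusted p = 0.000289). Chaf1b, the middle subunit of the same histone deposition factor, had 14.2, 12.7 and 21 CPM in CD97-deficient libraries, 10.6, 12.5 and 17.1 CPM in Gα13-deficient libraries and 7.31, 10.9 and 12.9 CPM in WT libraries. Both knockout groups overlap WT, and neither comparison passed (adjusted p = 0.138 in CD97-deficient cells and 0.356 in Gα13-deficient cells).

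Per length, the mean level over the 9 libraries ran from 1.97 RPKM (Exo1) to 39 RPKM (Rrm2). Mcm4 at 37.5 RPKM and Pcna at 29.8 RPKM were near the top, and Chaf1b at 2.83 RPKM and Orc1 at 3.08 RPKM near the bottom. The order depends on the annotated exon length too, which is 8422 bases for Exo1 and 2771 bases for Rrm2. Each gene had at least 40 counts in every WT library, the lowest being Rfc4. The median coefficient of variation over the 40 genes was 11.5% among CD97-deficient, 11% among Gα13-deficient and 15% among WT libraries. The libraries of a group tended to be high or low for many of the genes at once. CD97-deficient replicate 3 had the highest level of its group for 30 genes, Gα13-deficient replicate 3 for 28 and WT replicate 2 for 33. Gα13-deficient replicate 1 had the lowest level of its group for 32 genes. WT replicate 2 is the female-pattern WT library and the WT library with the highest macrophage sum (1463 CPM), and their part in its level was not tested.

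Between the 2 knockouts no replication gene passed the test. In Gα13-deficient against CD97-deficient cells 0 of the 40 genes were called, where 0.0498% of all genes tested were called, and 2 had an unadjusted p under 0.05 by edgeR, while DESeq2 also called 0. The median log2 fold change was 0.07 (range -0.32 to 0.46), against -0.00 over all genes tested, and 27 genes were above 0 and 13 below. The 95% intervals of 25 genes lay within 0.5 of 0 on the log2 scale. The widest bounds were -0.92 (Gins1) and 0.92 (Orc1), so these data do not resolve smaller differences in those genes. The 2 intervals that left out 0 were those of Rpa3 (0.46, from 0.12 to 0.81, adjusted p = 0.669) and Prim1 (0.27, from 0.01 to 0.52, adjusted p = 0.806), and neither passed after adjustment. Rpa3, Prim1 and Prim2 were the 3 genes whose Gα13-deficient libraries all lay above the CD97-deficient ones, as 7.16% of all genes tested did.

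**Figure D3:**
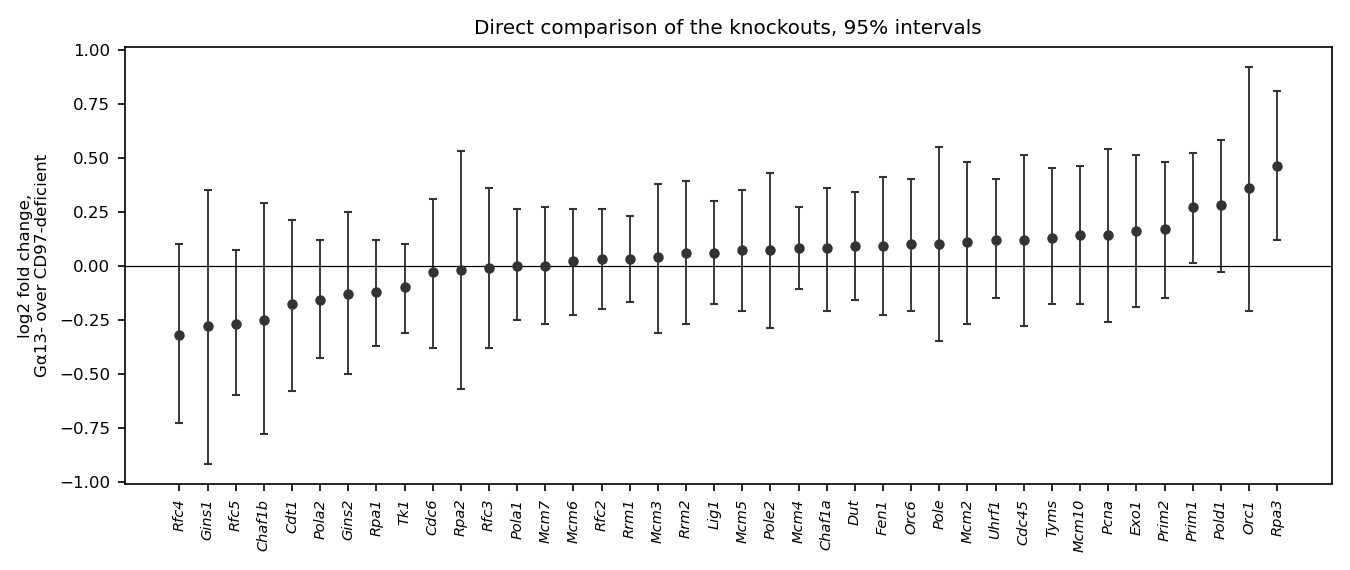
Log2 fold change of Gα13-deficient over CD97-deficient cells (y axis, points, with 95% intervals as bars, n = 3 libraries per group) for each of the 40 replication genes (x axis, ordered by fold change). Points run from -0.32 for Rfc4 to 0.46 for Rpa3, and only the intervals of Prim1 and Rpa3 leave out 0.

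Further genes of replication that are not among the 40 moved in the same direction with smaller medians. Of 52 such genes, 23 were higher and 0 lower in CD97-deficient cells (median log2 fold change 0.48), and 25 were higher and 1 lower in Gα13-deficient cells (0.49). The 4 with the smallest p in CD97-deficient cells were 2810417H13Rik, the Pcna-binding protein Pclaf, Dnmt1, the maintenance DNA methyltransferase, Wdhd1, a replisome scaffold, and Asf1b, a histone chaperone. 2810417H13Rik had 85.1, 73.7 and 85.5 CPM in CD97-deficient libraries, 78, 94.2 and 100 CPM in Gα13-deficient libraries and 33.9, 41.2 and 31.9 CPM in WT libraries. The knockout libraries stood well above WT, and the log2 fold change was 1.19 ± 0.13 in CD97-deficient cells (SE, adjusted p = 0.000456) and 1.35 ± 0.13 in Gα13-deficient cells (adjusted p = 6.68e-05). In CD97-deficient cells the log2 fold changes of Dnmt1, Wdhd1 and Asf1b were 0.82, 0.89 and 1.07, and in Gα13-deficient cells those of the same genes were 0.86, 0.92 and 1.21, and all passed. The lower gene was Donson, a replisome protein, with 34.3, 36.2 and 31.6 CPM in Gα13-deficient libraries and 53.9, 44 and 47.9 CPM in WT libraries (-0.52 ± 0.13, adjusted p = 0.0183), a call lost without Gα13-deficient replicates 1 (0.0518) or 3 (0.068) or WT replicate 1 (0.0785). The count of higher genes in CD97-deficient cells was 15 without CD97-deficient replicate 1, 11 without CD97-deficient replicate 3, 12 without WT replicate 1 and 8 with the sex pattern in the model. In Gα13-deficient cells it was 15 without WT replicate 1.

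Counterparts of these genes had medians near 0. They are repair and mitochondrial enzymes and other relatives of members, and also Orc2, which belongs to the origin recognition complex itself. Of 13 such genes, 0 were higher and 1 was lower in each comparison, with median log2 fold changes of 0.01 in CD97-deficient cells and 0.06 in Gα13-deficient cells. Rrm2b, the small ribonucleotide reductase subunit of resting and damaged cells, had 48.1, 45.4 and 37.9 CPM in CD97-deficient libraries, 35.1, 36.9 and 43.5 CPM in Gα13-deficient libraries and 46.8, 50.8 and 44.8 CPM in WT libraries. It was not called in either, at -0.12 ± 0.13 in CD97-deficient cells and -0.30 ± 0.13 in Gα13-deficient cells on the log2 scale, where Rrm1 and Rrm2 rose. Tk2, the mitochondrial thymidine kinase, had 17.2, 22.9 and 21 CPM in CD97-deficient libraries, 20.7, 19.1 and 21.6 CPM in Gα13-deficient libraries and 29.8, 25.7 and 32.3 CPM in WT libraries. It was the lower gene in both, at -0.52 ± 0.15 in CD97-deficient cells (SE, adjusted p = 0.0457) and -0.51 ± 0.15 in Gα13-deficient cells (adjusted p = 0.0435). Both calls were lost with library totals as scaling (0.0689 in CD97-deficient and 0.0625 in Gα13-deficient cells). They were also lost without most single libraries, with an adjusted p of up to 0.173 in CD97-deficient cells, without CD97-deficient replicate 1, and up to 0.147 in Gα13-deficient cells, without Gα13-deficient replicate 2. Lig3 and Lig4, repair ligases, changed by 0.03 and -0.12 in CD97-deficient cells and by -0.08 and -0.19 in Gα13-deficient cells, and none passed. The repair polymerases Polb and Poll changed by -0.16 and -0.42 in CD97-deficient cells and by -0.02 and 0.14 in Gα13-deficient cells, and none passed. Polg, the mitochondrial DNA polymerase, changed by 0.29 in CD97-deficient cells and 0.36 in Gα13-deficient cells, and neither passed. Orc2 changed by 0.07 in CD97-deficient cells and 0.06 in Gα13-deficient cells, and neither passed.

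Mitosis genes, which peak after S phase, moved with them. Of 25, 23 were higher in CD97-deficient cells (median log2 fold change 0.96) and 25 in Gα13-deficient cells (1.10). Their summed level was 4918, 4571 and 4704 CPM in CD97-deficient libraries, 4624, 5008 and 5588 CPM in Gα13-deficient libraries and 2534, 2951 and 1972 CPM in WT libraries. Bub1b, a spindle checkpoint kinase, changed by 0.95 in CD97-deficient cells and 0.97 in Gα13-deficient cells, and Kif23, a motor of cell separation, by 0.81 in CD97-deficient cells and 0.85 in Gα13-deficient cells. The mitotic kinases Plk1 and Aurkb changed by 1.39 and 1.09 in CD97-deficient cells and by 1.51 and 1.19 in Gα13-deficient cells. These 4 genes passed in both comparisons.

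Among 13 genes of the E2F and pocket protein families, 6 were higher in CD97-deficient cells and 5 in Gα13-deficient cells, and 0 were lower in either. E2f1, an activator of S phase genes, had 30.5, 31.6 and 32.9 CPM in CD97-deficient libraries, 26.6, 43.5 and 41.8 CPM in Gα13-deficient libraries and 11.6, 21.1 and 13.6 CPM in WT libraries. Neither knockout group overlapped WT, and E2f1 changed by 1.04 ± 0.23 in CD97-deficient cells (SE, adjusted p = 0.0147) and 1.27 ± 0.23 in Gα13-deficient cells (adjusted p = 0.00334). The repressors E2f7 and E2f8, themselves S phase genes, changed by 0.96 and 1.08 in CD97-deficient cells and by 1.04 and 1.22 in Gα13-deficient cells, and all passed. Rbl1, the pocket protein p107, changed by 0.32 in CD97-deficient cells and 0.34 in Gα13-deficient cells and passed in both. The call of E2f1 in CD97-deficient cells was lost without CD97-deficient replicate 3 (0.0649) or WT replicates 1 (0.0646) or 3 (0.0515). The calls of Rbl1 were lost without most single libraries (adjusted p up to 0.136 in CD97-deficient cells, without CD97-deficient replicate 3, and up to 0.0943 in Gα13-deficient cells, without Gα13-deficient replicate 2), and the call in Gα13-deficient cells was also lost with the replicate block (0.0569). The count of higher genes in CD97-deficient cells was 2 without CD97-deficient replicate 3, WT replicate 1 or WT replicate 3, 3 without Gα13-deficient replicate 2 or CD97-deficient replicates 1 or 2, and 1 with the sex pattern in the model. Rb1, the retinoblastoma gene, was not called, at -0.18 in CD97-deficient cells (adjusted p = 0.387) and -0.34 in Gα13-deficient cells (adjusted p = 0.0838), where it was lower without Gα13-deficient replicate 3 (0.00873).

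**Figure D4:**
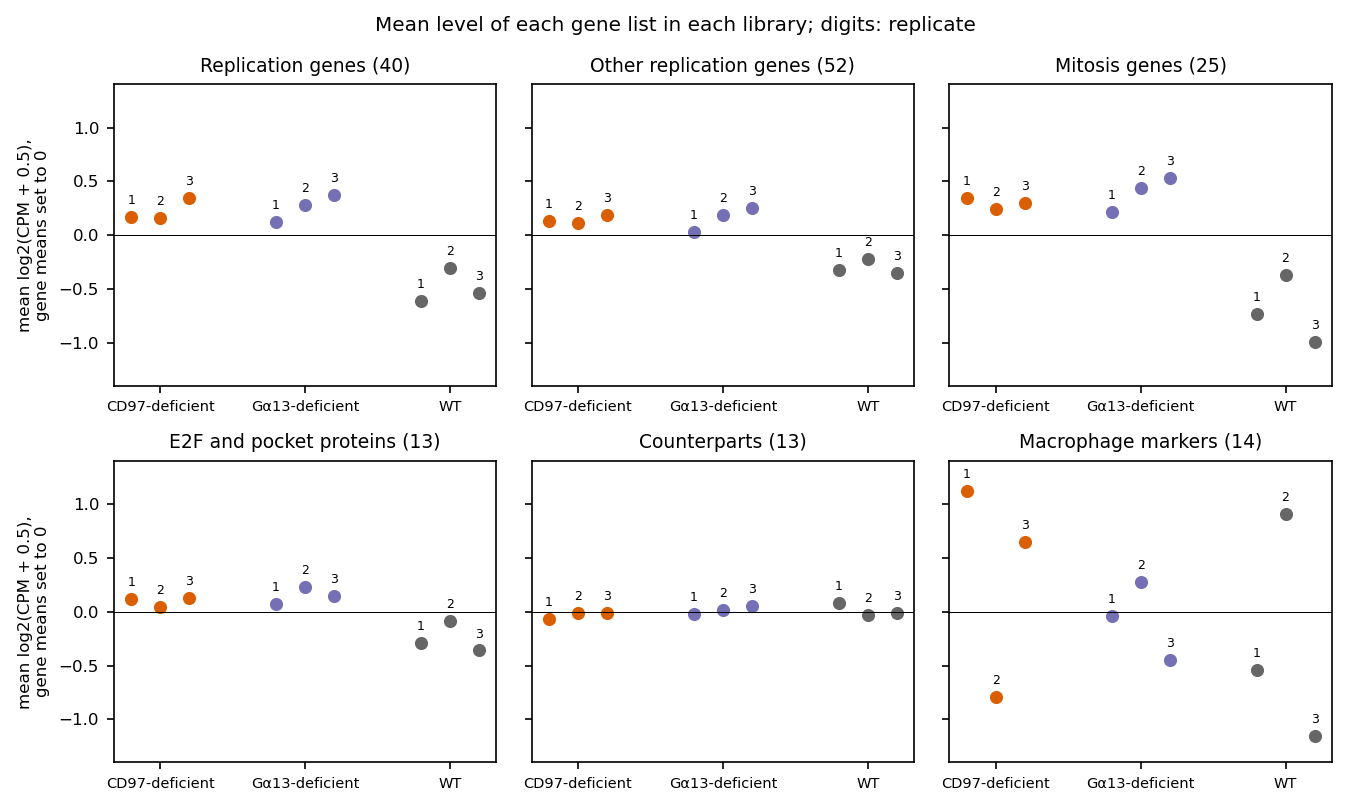
Mean log2(CPM + 0.5) of each gene list in each library (y axis, each gene centred on its mean over the 9 libraries), with CD97-deficient libraries in orange, Gα13-deficient in purple and WT in grey, replicate numbers beside the points. The replication list is at 0.17, 0.16 and 0.35 in CD97-deficient, 0.12, 0.28 and 0.37 in Gα13-deficient and -0.61, -0.30 and -0.54 in WT replicates 1 to 3; the counterparts stay near 0, and the macrophage markers vary within every group.

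Histone genes, of which those in the replication-dependent clusters make their RNA in S phase, were measured with many near-identical copies and are therefore uncertain. The count table held 57 of them, among them H1f0, a linker histone gene outside the clusters, and the pseudogene Hist3h2bb-ps, and the filter kept 42, of which 5 were higher in CD97-deficient cells (median log2 fold change 0.55) and 8 in Gα13-deficient cells (0.61), with 0 lower in either. Hist1h1b, a linker histone gene, had 34.8, 38.1 and 37.4 CPM in CD97-deficient libraries, 35, 39.8 and 45.3 CPM in Gα13-deficient libraries and 15.3, 23.6 and 14.4 CPM in WT libraries. Neither knockout group overlapped WT, and the log2 fold change of Hist1h1b was 1.04 in CD97-deficient cells (adjusted p = 0.00234) and 1.17 in Gα13-deficient cells (adjusted p = 0.000704). The core histone genes Hist1h2bl, Hist1h2bb and Hist1h2ak changed by 1.10, 1.21 and 0.78 in CD97-deficient cells, which passed, and by 1.32, 0.88 and 0.83 in Gα13-deficient cells, where Hist1h2bb did not pass (adjusted p = 0.0723). The call of Hist1h2ak in CD97-deficient cells was lost without CD97-deficient replicates 1 (0.0903) or 3 (0.0875) or WT replicates 1 (0.0981) or 3 (0.0634), and in Gα13-deficient cells without WT replicate 1 (0.05, just over the threshold). That of Hist1h2bb in CD97-deficient cells was lost without CD97-deficient replicates 2 (0.0527) or 3 (0.0849) or WT replicate 1 (0.0776). The count of higher histone genes in CD97-deficient cells was 2 without CD97-deficient replicate 3 or WT replicate 1, 3 without CD97-deficient replicates 1 or 2 or WT replicate 3, and 8 without WT replicate 2. In Gα13-deficient cells it was 5 without Gα13-deficient replicate 2 or WT replicate 3.

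The E2F words printed above were frequent among the promoters of the list. A window with at least 1 E2F word was found for 13 of the 33 genes (39.4%), against 4.81% of 8612 tested genes with a window, and for 13 of 38 windows (34.2%), against 3.98% of 10935 windows of tested genes. The 13 genes are Orc1, Cdc6, Cdt1, Mcm3, Mcm5, Mcm6, Mcm7, Pola1, Pold1, Pole2, Rfc3, Lig1 and Uhrf1, of which 7 belong to licensing and helicase. The further replication genes held such a word in 12 of 44 genes (27.3%), the mitosis genes in 1 of 21 (4.76%) and the counterparts in 0 of 10. The word TTTGAA, the core of the CHR element of late cell cycle genes, showed the opposite order, with 3 of 33 replication genes (9.09%) and 15 of 21 mitosis genes (71.4%), against 14.7% of tested genes with a window. CCAAT stood in 20 of 33 replication genes (60.6%) and 17 of 21 mitosis genes (81%), against 43.6% of tested genes with a window. Among the windows of the list, E2F words overlapped each other in Mcm6 and Mcm5, an E2F word overlapped CCAAT in Mcm7, and CCAAT overlapped its own reverse complement in Uhrf1.

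**Figure D5:**
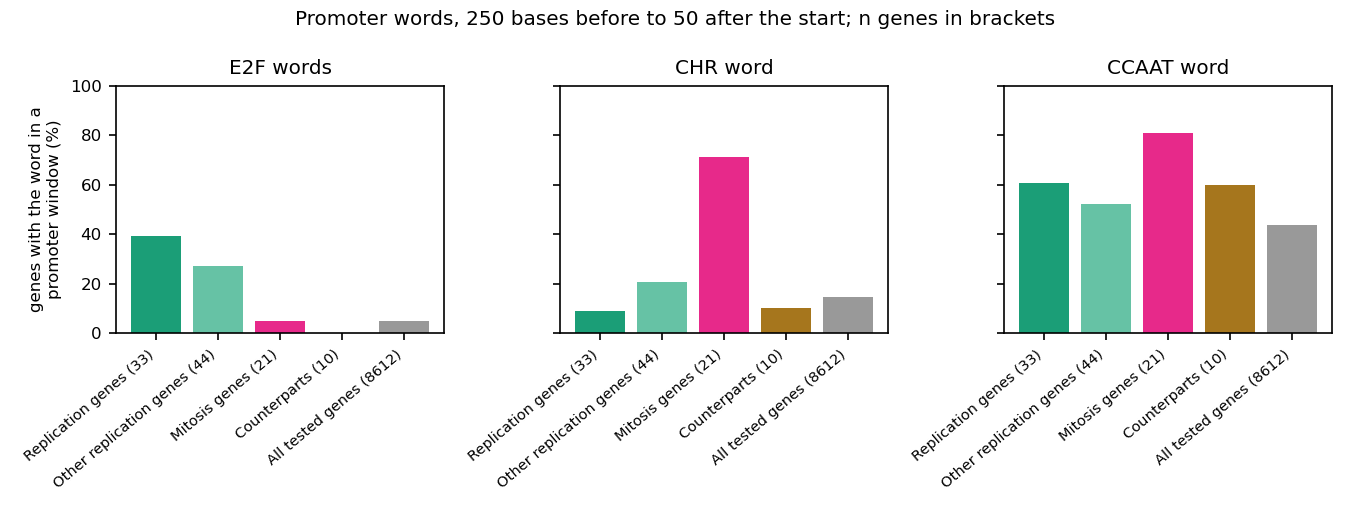
Share of genes (y axis, percent) with at least 1 match to the E2F words, to the CHR word TTTGAA or to CCAAT in a window from 250 bases before to 50 after the transcript start, for each gene list (x axis, number of genes with a window in brackets). The E2F words are most frequent in the replication genes (39.4%) and the CHR word in the mitosis genes (71.4%).

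Genes with and without an E2F word in the window had overlapping fold changes, and their difference was not tested. The 13 genes with a word had median log2 fold changes of 0.85 in CD97-deficient cells and 0.88 in Gα13-deficient cells, and 9 were called in each comparison. The 20 genes whose window held none had medians of 0.74 in CD97-deficient cells and 0.82 in Gα13-deficient cells, with 14 and 13 called. Orc1 and Pola1 hold a word and were not called, whereas Rrm1 and Rrm2 hold none in the window and were called in both. A match is a description of letters, and binding was not measured.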

How the data were processed

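RNA sequencing counts of 9 libraries, 3 for each of 3 genotypes, were analysed. The authors deposited whole-number counts per gene symbol for 14209 genes, and every count column had a sample. Per the submitters' processing notes, STAR, HTSeq, DESeq2 and mm10 were used, with no version. The labels do not state the strand setting. Groups and replicate numbers come from the titles. WT columns were matched to samples by source name, because their numbers are not those of the titles.

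In R 4.3.3, edgeR 4.0.16 (with limma 3.58.1) was run as 1 robust quasi-likelihood fit over the 9 libraries with TMM factors. Its expression filter kept 12043 genes and removed 2166. Benjamini-Hochberg adjustment ran over all genes tested, and a call means an adjusted p under 0.05 at any fold. The biological coefficient of variation was 0.15. CPM values are on the TMM scale. RPKM values divide them by the length of all annotated exons of a gene in GENCODE M21, with overlaps counted once. Totals of 5679946 to 13904646 counts set the counting precision, and the floor of 3 counts covers counting error only. The fitting steps were tested on simulated counts. Libraries of a group differed by more than sampling noise, with a chi-square of 6.4 to 21 per gene. Promoter words were matched to RefSeq windows (GRCm38.p6).

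The 40 genes and all lists were chosen with earlier results of these data known. Per role, values in every library were given for the gene with the highest level per length, those with the smallest p in each comparison with WT and that with the largest p in CD97-deficient cells, and also for Pcna, Mcm2, Rrm2, Tyms and the targeted genes. Of each further list, the 4 genes with the smallest p in CD97-deficient cells were named, with the counterparts Rrm2b, Tk2, Lig3, Lig4, Polb, Polg and Orc2. The values of Cdc45, Gins1, Pola1 and Pole in every library, and the genes Donson and Rb1, were chosen after their values were seen.

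Same-number libraries of the Gα13-deficient and WT groups deviated together from their group means (correlations of 0.179, 0.129 and 0.111, 3 of 3 above 0.1). These libraries also share the sex pattern (male, female and male for replicates 1 to 3), so pairing and shared sex cannot be told apart. The labels do not say what the numbers mark, and the main fit did not use them. For CD97-deficient against WT and for Gα13-deficient against CD97-deficient, 0 of 3 were above 0.1. The alternatives were RLE factors, library totals, no filter, DESeq2 1.42.0, the compared groups alone, the replicate block, the sex pattern as a covariate and leaving out each library.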

Additional observations from a re-analysis of the deposited data

How the results depend on the processing

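The median log2 fold change of the 40 replication genes against WT stayed above 0 under every alternative run, and no called result changed sign. With 1 library left out, 19 to 27 of them were called higher in CD97-deficient cells (19 without CD97-deficient replicate 3) and 25 to 29 in Gα13-deficient cells. Of the 27 calls in each comparison, 19 in CD97-deficient and 24 in Gα13-deficient cells held in all 9 such fits. With the sex pattern in the model, 222 of all genes and 16 replication genes were called in CD97-deficient cells. As 1 WT library has the female pattern, that estimate rests on few libraries, and the cause was not tested.

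Over all genes, leaving out 1 library gave 364 to 1271 calls for CD97-deficient against WT, 693 to 1459 for Gα13-deficient against WT and 4 to 25 for Gα13-deficient against CD97-deficient cells. The last comparison called 11 genes with no filter, 53 with the compared groups alone and 54 with DESeq2, of which 0 were replication genes. The cause was not tested.

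With the replicate block, all 27 replication genes called in Gα13-deficient cells kept their call, and 1188 of all genes were called. In that comparison the block also matches the sex pattern, so it does not show that the libraries are paired. In CD97-deficient cells against WT the block gave 24 replication genes (23 of the 27 and Gins1) and 789 of all genes. In Gα13-deficient against CD97-deficient cells it gave 0 replication genes and 73 of all genes. Depth limits the least abundant genes most, such as Rfc4 with 40 counts in 1 WT library.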
